A study of Saccharomyces cerevisiae with 142 samples.

Results

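Replication licensing in budding yeast (Saccharomyces cerevisiae) was followed here through the mRNA of 10 genes, out of 5449 genes measured. They were taken by name, from a list chosen with earlier results of these data known. MCM2, MCM3, MCM4, MCM5, MCM6 and MCM7 encode the subunits of the replicative helicase. CDC6, TAH11 and ORC1 encode proteins that load the helicase, and CDC45 encodes a subunit that activates it. Each of the 10 genes had 1 probe set on the array, so all were measured.

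Before S phase, the origin recognition complex, Cdc6 and the product of TAH11 (also called Cdt1) place rings of Mcm2 to Mcm7 on replication origins, and this loading is called licensing. Cdc45 and the GINS complex later join the loaded rings to make the active helicase. In budding yeast, cyclin-dependent kinase bound to the B-type cyclins (CLB genes) blocks new licensing after S phase has begun, partly by removing Cdc6 and sending Mcm proteins out of the nucleus. The MCM genes are known for transcription at the M/G1 boundary through the Mcm1 factor and its repressors Yox1 and Yhp1. CDC45 belongs to the genes transcribed at G1/S.

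The series held 142 Affymetrix arrays in 9 time courses and 6 groups, in MATa strains of the BF264-15D background. The 30 C wild type (BF264-15DU, bar1; 2 courses, 28 arrays), the cyclin mutant (2 courses, 30 arrays) and the cdc20 mutant (2 courses, 32 arrays) were small G1 cells collected by elutriation, a sorting by size, and kept at 30 C in rich medium holding dextrose and 1 M sorbitol. The 37 C wild type (bar1; 1 course, 15 arrays) was grown at 25 C, elutriated and moved to prewarmed rich medium. The cyclin mutant carried disruptions of all 6 CLB genes, namely clb1::URA3 with clb2::LEU2, clb3::TRP1 with clb4::HIS2, and clb5::ARG4 with clb6::APE1, together with GAL1-CLB1:LEU2. Its label lists no bar1. The cdc20 strain was bar1 with cdc20::LEU2, a copy of CDC20 under a GAL promoter (Pgall-CDC20::ADE2) and CFP-TUB1::URA3. GAL promoters are repressed in dextrose. The cdc14-3 strain (1 course, 21 arrays) and the cdc15-2 strain (1 course, 16 arrays) were bar1 cells from rich medium (2% dextrose) that had been held in G1 by the mating pheromone alpha factor at 25 C before release into 37 C medium. CDC20 encodes an activator of the anaphase-promoting complex, CDC14 the phosphatase of mitotic exit, and CDC15 a kinase of the mitotic exit network, so these 3 mutants are known to stop at different steps of mitosis. The first 4 groups were arrays from earlier studies, so for cdc14-3 and cdc15-2 the synchrony method, the RNA extraction and the array series cannot be told apart from genotype. Replicate courses are numbered in the labels without a statement that they were separate cultures, so p-values over courses measure the spread between these courses.

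Values are given as log2 of the deposited probe-set intensity. The columns of the second wild-type course at 30 C sat 1 probe set out of line with all others (correlation with the first course 0.0461 as deposited and 0.996 after moving them up by 1 row). They were moved before any use. The CLB2 probe set had medians of 7.03 and 7.05 in the cyclin-mutant courses, against 10.5 and 10.4 in the 30 C wild type. CLB3 (medians 6.77 and 6.68) and CLB4 (7.49 and 7.66) were low there too, whereas CLB1 (10.8 and 10.9) and CLB5 (10.8 and 10.3) gave signal. Where the CLB1 and CLB5 probes lie relative to the disruptions is not given in the sources used here. The strain also held GAL1-CLB1:LEU2, and its part in the CLB1 signal was not tested. The CLB6 probe set varied over time in the cyclin mutant, by 1.53 (log2) on a fitted curve. In the cdc20 courses the CDC20 probe set was highest early, with 9.30 at 40 min and 9.72 at 20 min, whereas in the 30 C wild type it reached 10.6 at 142 min and 10.5 at 150 min. Temperature-sensitive alleles such as cdc14-3 and cdc15-2 cannot be checked by mRNA level. MATa markers (5 genes) were present in all courses, with a median summed level between 13.3 and 15.5.

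The mean of the 6 MCM mRNAs made an early pulse and dropped in all 9 courses. It came back to a similar level in the 7 courses of the wild types and of the 3 mitotic mutants. In both cyclin-mutant courses it dropped further and stayed down. The mean of the 6 subunits peaked 1 sample before CLN2, the G1 cyclin used here to mark the G1/S transition, in 8 of 9 courses and in the same sample in the second cdc20 course. The search for this peak ended at the CLN2 peak. In the 30 C wild type the mean of the first course stood at 11.1 (78 min), 9.81 (110 min) and 10.96 (158 min), and that of the second at 11.18 (86 min), 10.03 (134 min) and 11.06 (166 min). The cyclin mutant reached the same early peak (11.21 at 86 min and 11.21 at 78 min), and the mean then sank to 8.77 at 150 min and 8.84 at 142 min. No return followed: the highest later values were 8.88 at 230 min and 8.91 at 206 min, 0.10 and 0.06 above the low point. Arrays of whole cultures cannot tell fewer cells at a stage from less RNA per cell.

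**Figure D1:**
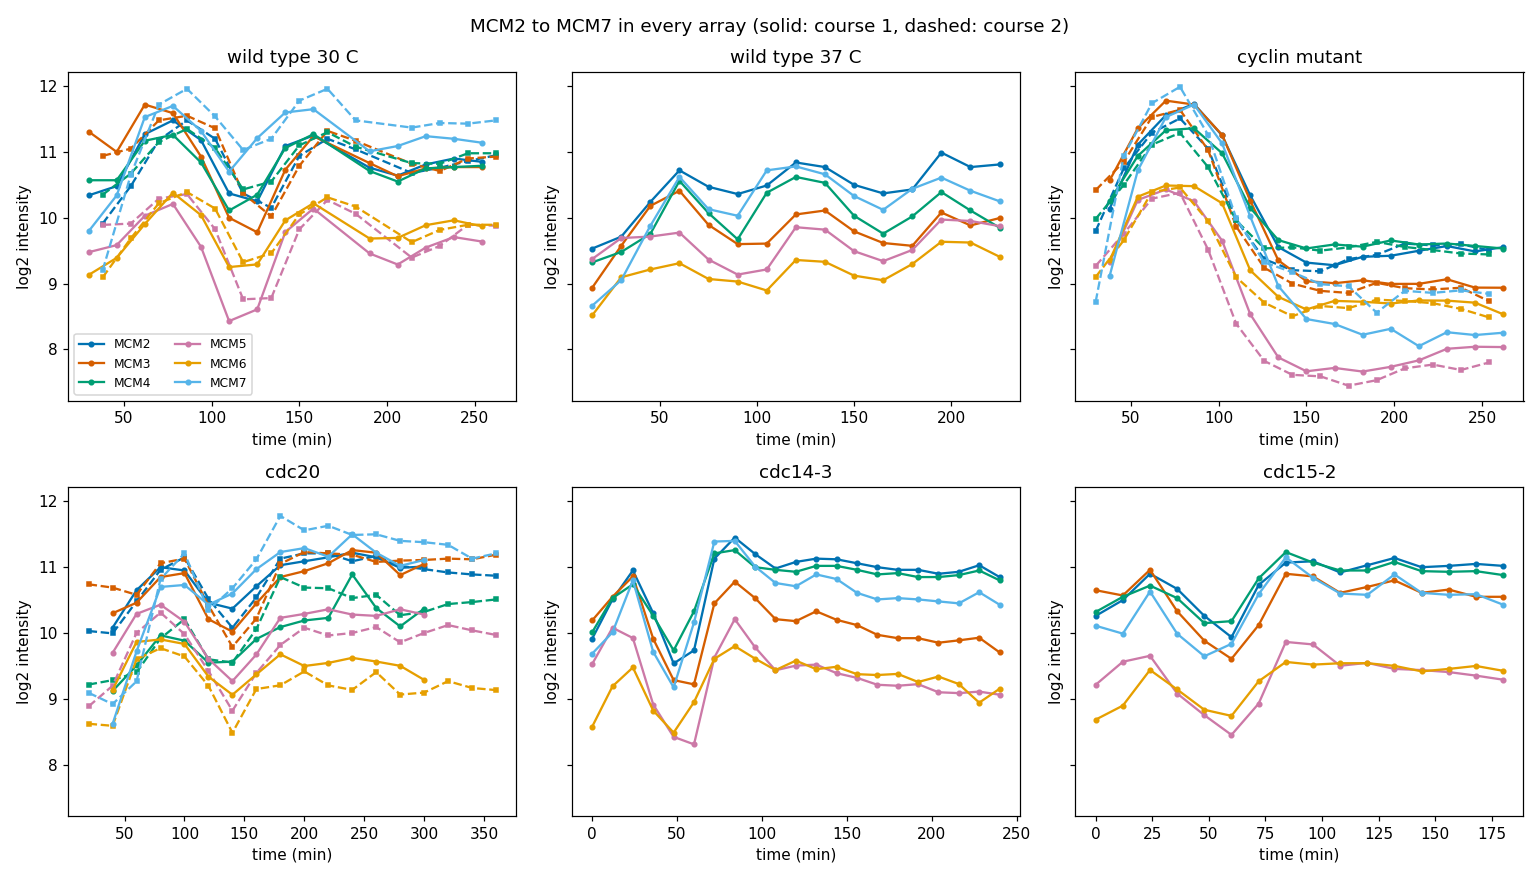
Log2 intensity of MCM2 to MCM7 (vertical axis) against time in minutes (horizontal axis), 1 panel per group and 1 point per array, with solid lines for the first course and dashed lines for the second. From the early peak of the MCM mean to its low point each subunit falls in all panels, with the smallest change, -0.10, for MCM7 in the first cdc20 course. Each comes back in all but the cyclin mutant, where MCM5 ends at 8.03 and 7.80.

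In the mitotic mutants the later high was at or above the early peak. The cdc14-3 mean had its early peak of 10.46 at 24 min, its low of 9.11 at 48 min, and its later high of 10.82 at 84 min, a rise of 1.71. The cdc15-2 mean read 10.38 in the 24 min sample, 9.46 in the 60 min sample and 10.63 in the 84 min sample, a rise of 1.17. The cdc20 courses moved from 10.47 at 80 min through 9.82 at 140 min to 10.79 at 240 min, and from 10.55 at 100 min through 9.57 at 140 min to 10.7 at 200 min. In the last samples the MCM mean still stood 0.89 (cdc14-3, 240 min), 0.81 (cdc15-2, 180 min), 0.70 (cdc20, 300 min) and 0.91 (cdc20, 360 min) above the low point. The 37 C wild type swung less, with 10.23 at its early peak (60 min), 9.64 at its low (90 min) and 10.28 at its later high (195 min).

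A measure of RNA quality, the log2 difference between the 3' and 5' control probe sets of TDH1, was 0.51, 0.66 and 1.12 at the peak, low point and later high of cdc14-3, and 0.66, 1.71 and 2.58 in cdc15-2. Its part in those courses was not tested. In the cyclin mutant it averaged 1.98 and 1.92 per course, close to the 2.15 and 1.89 of the 30 C wild type, whereas the cdc20 courses averaged 2.98 and 2.59. Late levels of cdc20 are set against both of these groups, and the part of this measure in those differences was not tested.

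**Figure D2:**
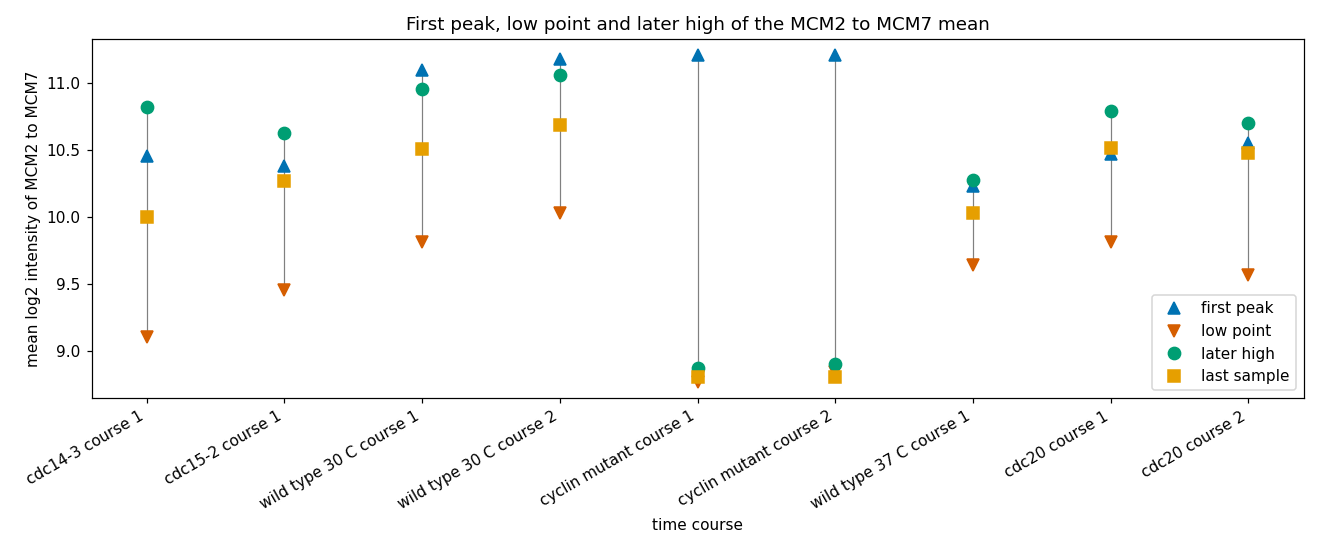
Mean log2 intensity of the 6 MCM genes (vertical axis) in each of the 9 courses (horizontal axis), at the early peak (blue triangles), the low point within 60 min after the CLN2 peak (orange triangles), the highest later sample (green circles) and the last sample (yellow squares). The gap between low point and later high is 0.10 and 0.06 in the cyclin mutant and between 0.64 and 1.71 in the other 7 courses.

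The rise held for each subunit and not only for the mean. Between the low point and the later high, each of the 6 subunits went up by 0.48 to 2.22 in the 7 other courses, with a median of 1.09 over those 42 values. In the cyclin mutant the 12 values lay between -0.28 and 0.41, with a median of 0.09. Subunits of a course come from the same arrays and are not replicates, and such ranges were not counted for all genes. The largest rises were those of MCM7 (2.22) and MCM2 (1.92) in cdc14-3. The fall before the rise was less even. From the early peak to the low point of the mean, subunits changed by -1.78 to -0.10 in the 7 other courses. In the cyclin mutant they changed by -3.26 to -1.745. MCM7 fell least, from 10.7 to 10.6 in the first cdc20 course, where its own highest value up to 60 min after the CLN2 peak came at 160 min. These samples were picked on the mean of the same genes, so the values are a description without a test.

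Change over time was tested per group with a limma F-test of a smooth curve (a spline), and a gene was called at a Benjamini-Hochberg adjusted p under 0.05 over all genes, provided that the curve spanned at least 1 log2 unit. By this rule 8 of the 10 genes were called in the 30 C wild type, where 36.0% of all genes were called, and 9 in the cyclin mutant, where 37.4% were. The cdc20 group also had 9, against 56.1% of all genes, and the 37 C wild type had 6, against 32.5%. In cdc14-3 there were 4 (MCM2, MCM7, CDC6 and TAH11), against 22.7%, and in cdc15-2 only CDC6 and CDC45, against 18.9%. In these courses the early pulse was short beside the long plateau, and how well the curve followed the pulse was not measured. With samples up to 120 min, a choice made after seeing the data, 9 of the 10 genes were called in cdc14-3 (21.2% of all genes) and 6 in cdc15-2 (16.4%). The missing gene in cdc14-3 was TAH11, with a fitted range of 0.97. In the 37 C wild type the count was 3 without samples before 30 min, with MCM3, CDC6 and TAH11 dropping out, so those 3 calls rested on the earliest sample.

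MCM7 had the widest fitted range of the 6 subunits in 5 of the 6 groups, and in cdc15-2 MCM5 (0.89) was level with it (0.87). In the 30 C wild type its lowest, median and highest values were 9.79, 11.21 and 11.7 in the first course and 9.20, 11.46 and 11.96 in the second. The cyclin-mutant values were 8.05, 8.46 and 11.72, and 8.56, 8.99 and 11.99. The highest values of the groups were close and the medians far apart. Its fitted range was 3.42 in the cyclin mutant, 3.17 in cdc20 and 2.48 in the 30 C wild type. In cdc20 MCM7 ran from 8.62 to 11.5 in the first course and from 8.92 to 11.78 in the second, and these highest values came late, at 240 and 180 min. The cdc14-3 values were 9.17, 10.53 and 11.4, those of cdc15-2 9.65, 10.58 and 11.15, and those of the 37 C wild type 8.66, 10.33 and 10.78.

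MCM5 and MCM3 fell deepest in the cyclin mutant after MCM7. MCM5 had a lowest value of 7.66 at 182 min and 7.45 at 174 min in the cyclin mutant, while its lowest values in the 30 C wild type were 8.43 at 110 min and 8.76 at 118 min. Its highest values, 10.43 and 10.38 for the cyclin mutant against 10.21 and 10.36 for the wild type, were close. MCM3 was lowest in the very last cyclin-mutant samples, with 8.94 at 262 min and 8.73 at 254 min, against lowest values of 9.78 and 10.02 in the 30 C wild type. In cdc20 MCM3 had medians of 10.87 and 11.09 and sat at 11.05 and 11.19 in the last samples, so it remained high for as long as these courses ran. On the cdc14-3 plateau MCM3 and MCM5 ended lowest relative to the later high, with 10.78 and 10.21 at 84 min and 9.71 and 9.06 at 240 min.

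MCM2, MCM4 and MCM6 spanned less in the cyclin mutant, with fitted ranges of 2.38, 1.85 and 2.04, against 2.95 for MCM3 and 2.88 for MCM5. MCM2 had lowest, median and highest values of 10.25, 10.83 and 11.48, and 9.91, 10.9 and 11.48 in the 30 C wild type, against 9.28, 9.55 and 11.73, and 9.19, 9.60 and 11.51 in the cyclin mutant. MCM4 went from a peak of 11.36 and 11.29 to 9.53 and 9.44 at the end of the cyclin-mutant courses. Its fitted range in the 30 C wild type was 0.97, just under the minimum, at an adjusted p of 0.000423 from the limma F-test. MCM6 ended the cyclin-mutant courses at 8.53 and 8.49, its lowest values there, after peaks of 10.49 and 10.46. In cdc20 MCM6 stayed below its early value, with 9.90 and 9.64 at the early peak of the MCM mean, 9.62 and 9.42 at its later high and 9.29 and 9.13 in the last samples. MCM4 exceeded its early value there, at 9.96 and 10.21 at the early peak and 10.89 and 10.69 at the later high.

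The 6 subunits moved together over the whole set of arrays, though less evenly within single courses outside the cyclin mutant. Across the 142 arrays, with each gene centred on its mean in each course, every subunit correlated with the mean of the other 5 at a Pearson r between 0.852 (MCM7) and 0.960 (MCM2), and ranked between 1 and 3 among 5444 genes in that likeness. Within courses the median r over the 15 pairs of subunits lay between 0.655 (cdc14-3) and 0.979 (the first cyclin-mutant course). The lowest pair in a course had an r of 0.928 and 0.891 in the cyclin mutant, but of 0.130 and 0.230 in the 30 C wild type, 0.244 and 0.371 in cdc20, 0.281 in the 37 C wild type, 0.524 in cdc14-3 and 0.659 in cdc15-2. CDC6 reached 0.493 with the MCM mean, at rank 151 of 5443, and CDC45 0.260. TAH11 and ORC1 had negative values, -0.508 and -0.307, and were most negative in the cyclin mutant (-0.909 and -0.843 for TAH11, -0.727 and -0.509 for ORC1). In the other 7 courses TAH11 lay between -0.709 and 0.061 and ORC1 between -0.409 and 0.188. Arrays of a course share cells and stage, so these are descriptions.

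The late level was compared next, as the mean log2 value of a gene from 100 min to the end of each course, with 9 courses in 1 limma fit and Benjamini-Hochberg adjustment over all genes. The fit had 3 residual degrees of freedom, and the groups of 1 course were taken to vary like the others. The window follows clock time, so the stages in it are not matched. CLN2 peaked at 36 min in cdc14-3 and cdc15-2, 75 min in the 37 C wild type and 94 to 102 min at 30 C. The low point of the MCM mean lay inside the window at 30 C (110 to 150 min) and before it at 37 C (48 to 90 min). Courses ended between 180 and 360 min. In the cyclin mutant all 6 MCM genes and CDC6 were lower than in the 30 C wild type. That is 7 of 10 genes called lower, against 6.63% of all genes called lower and 15.3% called in either direction. MCM7 had late levels of 8.75 and 9.05 in the cyclin mutant against 11.2 and 11.47 in the wild type, a 5.42-fold difference (log2 difference -2.44 ± 0.16 SE, adjusted p = 0.000164). The courses of each group lay far from those of the other for every MCM subunit.

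MCM5 was at 8.07 and 7.74 against 9.40 and 9.63, which is 3.05-fold lower (-1.61 ± 0.16, limma adjusted p = 0.000932). MCM3, at 9.35 and 9.04 against 10.61 and 10.84, was 2.89-fold lower (-1.53 ± 0.14). For MCM2 the levels were 9.70 and 9.48 against 10.77 and 10.82 (-1.20 ± 0.11). MCM4 and MCM6 had the smallest differences of the 6, at -1.14 ± 0.14 and -1.03 ± 0.14, which are 2.21-fold and 2.04-fold. The 6 MCM calls held without each course of the 30 C wild type, the cyclin mutant and cdc20 in turn. CDC6, at 8.32 and 8.64 against 9.04 and 9.29, was 1.61-fold lower (-0.69 ± 0.14, limma adjusted p = 0.0191), and its call was lost without either wild-type course or without the first cyclin-mutant course (differences -0.81, -0.57 and -0.53).

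**Figure D3:**
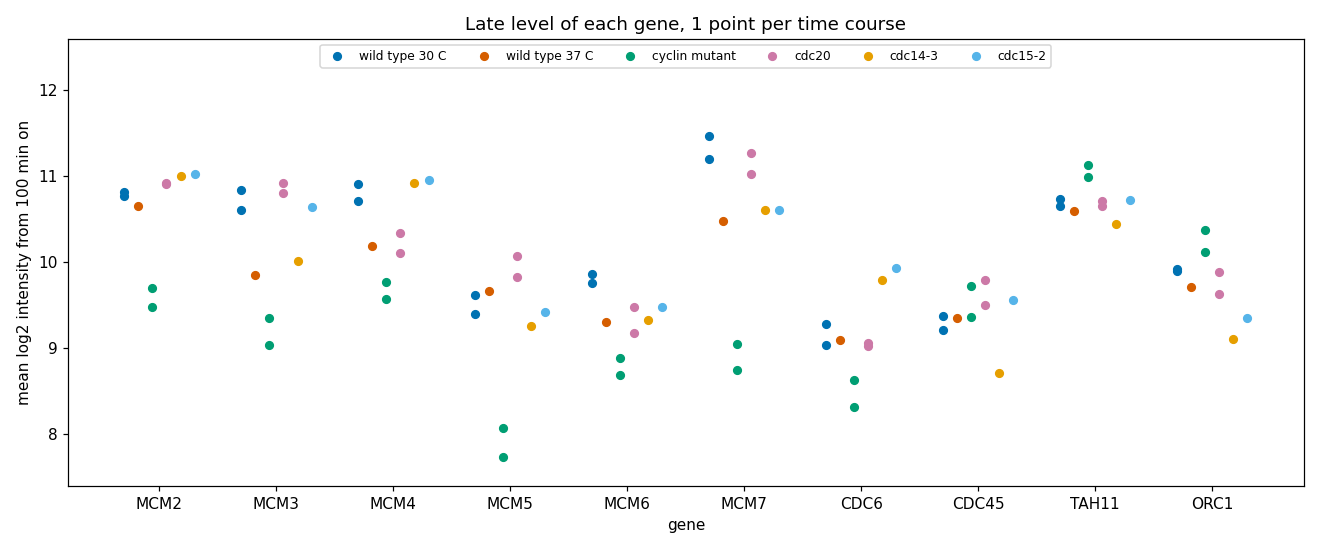
Mean log2 intensity from 100 min on (vertical axis) for each of the 10 genes (horizontal axis), 1 point per time course, coloured by group. For MCM2 to MCM7 the green points of the cyclin mutant lie below all others of the same gene, and for TAH11 and ORC1 they lie above all others. The share of all genes with such a separation was not counted. Levels of different genes are not comparable.

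Markers of MATa cells, several of them also under Mcm1, were low in the cyclin mutant as well. The summed level of the 5 MATa markers had a median of 13.3 and 13.4 in its courses, with a lowest value of 12.5, against medians of 14.9 to 15.5 elsewhere. The highest summed levels of its courses, 15.47 and 15.43, were close to the 15.37 and 15.26 of the 30 C wild type. BAR1, which encodes a pheromone protease, was higher in the cyclin mutant (late level 9.79 against 7.36 in the bar1 30 C wild type). The MATalpha markers (3 genes) had summed levels between 7.90 and 10.5 over all courses and the diploid or meiotic markers (3 genes) between 9.44 and 10.5. Their part in the MCM values was not tested.

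CDC45, TAH11 and ORC1 did not follow the helicase. CDC45 had late levels of 9.72 and 9.37 in the cyclin mutant against 9.22 and 9.38 in the 30 C wild type (difference 0.25 ± 0.16, 95% interval -0.13 to 0.62, limma adjusted p = 0.331). TAH11 was at 10.996 and 11.14 against 10.65 and 10.73, but its adjusted p of 0.0539 in the limma fit missed the threshold (0.37 ± 0.11). ORC1, at 10.37 and 10.12 against 9.90 and 9.93, had a difference of 0.33 ± 0.13 (limma adjusted p = 0.145). It was called without either cdc20 course and with the window from 140 min (0.43).

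The cdc20 arrest differed from the cyclin mutant in 9 of the 10 genes, where 45.3% of all genes were called, 25.4% higher and 19.9% lower. The 6 MCM genes and CDC6 were higher in cdc20, and ORC1 and TAH11 were lower. MCM7 (11.02 and 11.27 against 8.75 and 9.05) was 4.74-fold higher, MCM5 (10.07 and 9.83 against 8.07 and 7.74) 4.13-fold higher and MCM3 3.18-fold higher (2.25 ± 0.16, 2.05 ± 0.16 and 1.67 ± 0.14, limma adjusted p between 0.000104 and 0.00026). MCM2 was 2.51-fold higher. MCM4 (0.55 ± 0.14), MCM6 (0.55 ± 0.14) and CDC6 (0.57 ± 0.14) differed less, and ORC1 (-0.49 ± 0.13) and TAH11 (-0.38 ± 0.11) went the other way. Without the second cyclin-mutant course 6 genes were called, with MCM4, MCM6 and TAH11 lost, and over a window of 100 to 180 min the same 3 genes lost their calls (MCM4 0.12, MCM6 0.38 and TAH11 -0.22). CDC45 did not pass (0.10 ± 0.16, 95% interval -0.27 to 0.47).

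Against the 30 C wild type, cdc20 differed in MCM4 and MCM6 only, both lower, while 42.3% of all genes were called and 16.3% called lower. These 2 of 10 genes called lower are near the share of the array as a whole, so the count is not a result about the 10 genes. MCM4 was at 10.1 and 10.34 against 10.71 and 10.91 (-0.59 ± 0.14, limma adjusted p = 0.0129) and MCM6 at 9.48 and 9.18 against 9.76 and 9.87 (-0.48 ± 0.14, limma adjusted p = 0.0269). Both calls were lost without the second wild-type course (-0.49 and -0.43), and the MCM6 call was lost without the first (-0.54) or without the second cdc20 course (-0.33), where MCM5 was called higher (0.56). Levels of cdc20 and wild type also differed before 100 min. Taken relative to the mean of the same course before 100 min, a setting added after seeing the data, MCM2 (0.51), MCM3 (0.77), MCM4 (0.80), MCM5 (0.51) and MCM7 (1.12) were higher in cdc20, where 26.0% of all genes were called and 12.8% called higher. So the direction for MCM4 depended on the reference. With that setting the cyclin mutant stayed below the 30 C wild type in all 6 subunits, by -1.11 to -2.38 (12.1% of all genes called), and below cdc20 in all 6 (29.2%). The samples before 100 min covered unlike stages. They held the early MCM peak of the 30 C wild type (78 and 86 min) and of the first cdc20 course (80 min). The second cdc20 course was sampled from 20 min, and its peak at 100 min fell in the late window. The part of this in the differences was not tested.

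**Figure D4:**
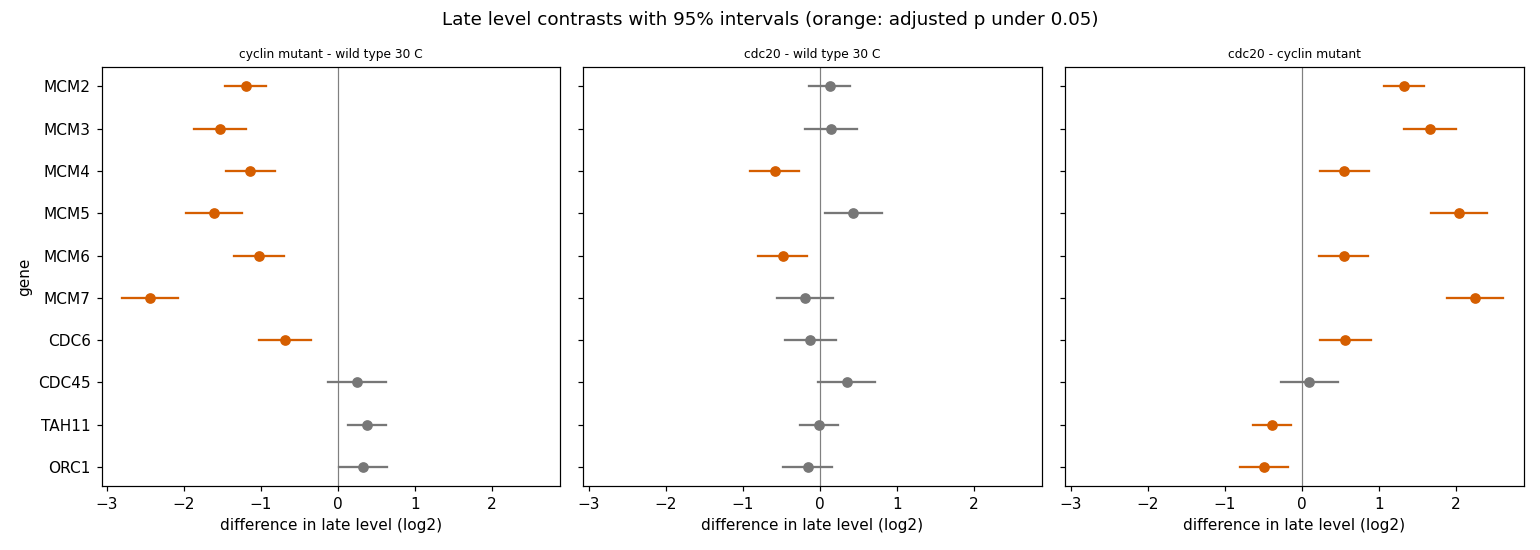
Difference in late level on the log2 scale (horizontal axis) with its 95% interval for each gene (vertical axis), for the cyclin mutant minus the 30 C wild type, cdc20 minus the 30 C wild type, and cdc20 minus the cyclin mutant; orange marks a limma adjusted p under 0.05. MCM2 to MCM7 lie left of 0 in the first panel and right of 0 in the third, with MCM7 farthest out at -2.44 and 2.25.

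In the mitotic exit mutants none of the 10 late levels differed from the 37 C wild type by this test, where 7.10% of all genes were called for cdc14-3 and 3.95% for cdc15-2. At an unadjusted p under 0.05 there were 4 such genes for cdc14-3 (MCM4, CDC6, CDC45 and ORC1) and 3 for cdc15-2 (MCM3, MCM4 and CDC6). The share of all genes at that cutoff was not counted, so these counts are not a result about the 10 genes. MCM4 was at 10.92 in cdc14-3 and 10.95 in cdc15-2 against 10.19, differences of 0.73 ± 0.19 and 0.77 ± 0.19 with limma adjusted p of 0.0635 and 0.0743. MCM7 was at 10.61 in both mutants against 10.48, with 95% intervals for the difference from -0.38 to 0.65 in each. These are single courses, and the calls depended on the setting. With the spread estimated without either cdc20 course, MCM4 and ORC1 passed for cdc14-3, and MCM3, MCM4 and CDC6 for cdc15-2. With the window from 140 min, MCM4 (0.88) and CDC45 (-0.79) passed for cdc14-3, and MCM3 (0.77), MCM4 (0.90) and CDC6 (0.95) for cdc15-2. Over all settings tried, the calls among all genes ranged from 0 to 1044 for cdc14-3 and from 0 to 734 for cdc15-2.

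Between cdc15-2 and cdc14-3 no late level passed either, with 0.184% of all genes called. The widest gaps were those of CDC45, at 9.56 against 8.71 (0.85 ± 0.23, limma adjusted p = 0.249), and MCM3, at 10.64 against 10.02 (0.62 ± 0.20, limma adjusted p = 0.298), and both had an unadjusted p under 0.05. The remaining 5 MCM genes differed by 0.16 or less.

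The warm wild type had lower late levels than the 30 C wild type for MCM3 (9.86 against 10.61 and 10.84), MCM4, MCM6 and MCM7 (10.48 against 11.2 and 11.47). These 4 of 10 genes were called lower among 22.3% of all genes called lower and 51.4% called in either direction, so the share is near that of the array as a whole. The differences were -0.87 ± 0.18, -0.62 ± 0.17, -0.51 ± 0.17 and -0.86 ± 0.19. Temperature, sorbitol, array series and the stages held in the late window go together here and cannot be told apart. Without the second 30 C course MCM4 (-0.52) and MCM6 (-0.46) were no longer called, and without the first MCM6 was not (-0.57). Relative to each course's own arrays before 100 min none of the 10 was called (0.624% of all genes) and the sign turned for the 4 genes (MCM3 0.65, MCM4 0.45, MCM6 0.26 and MCM7 0.32).

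Levels were still moving after 100 min in the cyclin mutant, where the same F-test on these arrays alone called the 6 MCM genes and CDC45 (7 of 10 genes, 13.0% of all genes). MCM7 had a fitted range of 2.31 there and MCM3 of 1.96. None was called from 120 min on (fitted ranges of 0.29 for MCM2 and 0.48 for MCM3), and without the first course 3 were called. CDC45 alone was called in cdc20 (2.41, against 27.3% of all genes) and in the 30 C wild type (1.78, against 5.03%). No member was called after 100 min in the 37 C wild type (1.89% of all genes), cdc14-3 (1.05%) or cdc15-2 (0.239%). The MCM genes spanned at most 0.60 there, and with no minimum range 9 of the 10 genes were called in cdc14-3.

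How far each gene swung within a course, as the highest minus the lowest value of its fitted curve, was also compared. Relative to the cyclin mutant, cdc20 had smaller swings of MCM3 (-1.81), MCM5 (-1.63) and MCM6 (-1.06), with limma adjusted p of 0.0199, 0.0199 and 0.0462, where 4.39% of all genes were called and 1.32% called lower. MCM3 swung by 1.04 and 1.08 in cdc20 and by 2.93 and 2.82 in the cyclin mutant. None of these 3 calls held without either wild-type course, which enter the fit only through the spread, or without either cyclin-mutant course, and without the second cdc20 course MCM5 alone passed. Between the cyclin mutant and the 30 C wild type no swing of the 10 genes passed this test, where 0.275% of all genes were called. The 6 MCM swings were nonetheless wider in the cyclin mutant by 0.70 (MCM6) to 1.40 (MCM3), with a median of 1.03 against 0.01 for all genes. MCM5 (1.31 ± 0.16 SE, 95% interval 0.91 to 1.71) had the lowest limma adjusted p of the 10, 0.0649. With the swing taken as the SD over the arrays of a course, all 6 MCM genes were called, each wider in the cyclin mutant, among 2.97% of all genes.

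CDC6, the loader that is removed once S phase begins, rose early, and its later values differed between the courses. It was called as changing over time in all 6 groups, with fitted ranges from 1.78 (cdc14-3) to 2.62 (30 C wild type). In the 30 C wild type its lowest, median and highest values were 7.51, 9.01 and 9.77, and 6.95, 9.29 and 9.61. In cdc14-3 it rose from 7.74 at the start to 9.77 at 84 min and stood at 9.70 at 240 min. In cdc15-2 it rose from 7.92 to 9.87 at 84 min and was highest, 10.08, in the last sample. CDC6 stood near its maximum late in both courses, at late levels of 9.80 and 9.94 against 9.10 in the 37 C wild type (limma adjusted p of 0.0801 and 0.0684, not called). In cdc20 its highest values, 9.72 and 9.79, came at 100 min and its late levels were 9.03 and 9.06. Its cyclin-mutant peak (9.32 at 70 min and 9.81 at 78 min) was followed by a low of 7.85 at 150 min and 8.19 at 142 min.

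CDC45 kept the timing of CLN2. In all 9 courses its highest value up to 60 min after the CLN2 peak was in the very sample of that peak, at 36 min after release in cdc14-3 and cdc15-2 and at 75 to 102 min after elutriation. Its peak was 10.44 and 10.54 in the alpha-factor courses, 10.7 and 10.66 in the 30 C wild type, 11.02 and 10.87 for the cyclin mutant, 11.02 and 11.07 for cdc20 and 10.08 in the 37 C wild type. The pulse was thus measured in the cyclin mutant as in the other groups. Its lowest values fell in the earliest samples of 8 of the 9 courses, between 7.17 and 8.37, and in the second cdc20 course at 40 min (8.14). Fitted ranges reached 3.74 in the cyclin mutant and 3.25 in the 30 C wild type, the widest of the 10 genes in both groups. In cdc14-3 the fitted range was 1.35 with a limma adjusted p of 0.241, and 2.66 with p = 0.00616 over samples up to 120 min.

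**Figure D5:**
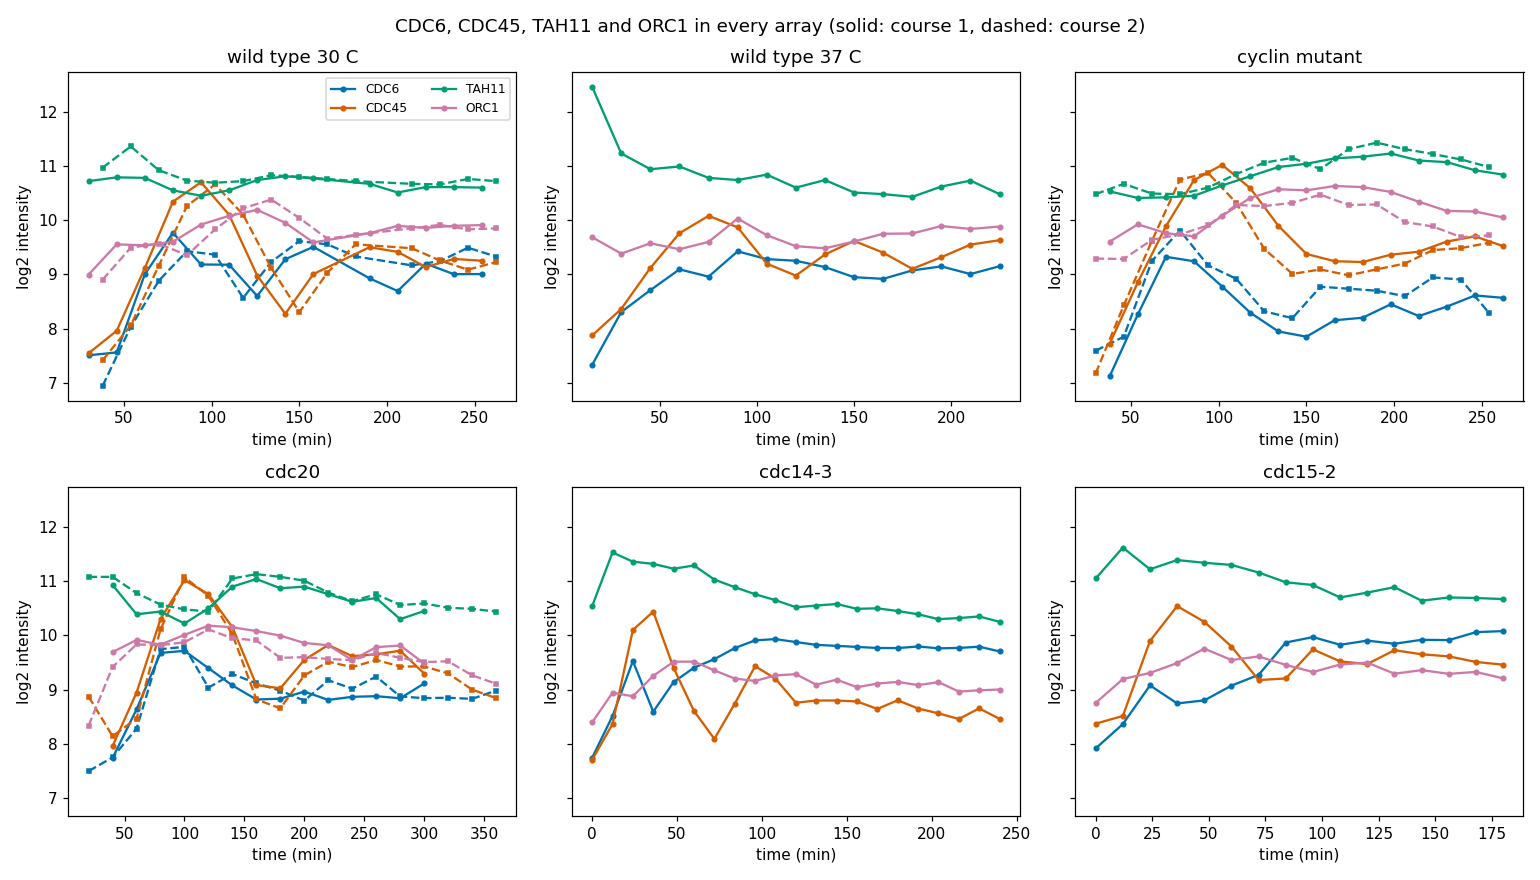
Log2 intensity of CDC6, CDC45, TAH11 and ORC1 (vertical axis) against time in minutes (horizontal axis), 1 panel per group and 1 point per array, with solid lines for the first course and dashed lines for the second. CDC45 peaks in each panel, CDC6 stays near 9.80 and 9.94 late in cdc14-3 and cdc15-2, and TAH11 starts at 12.46 in the 37 C wild type.

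ORC1, the largest subunit of the origin recognition complex, was highest after the MCM and CDC45 pulses. Within 60 min after the CLN2 peak, its highest sample came 24 min after that peak in cdc14-3, 12 min in cdc15-2, 32 min in both courses of the 30 C wild type, 32 and 48 min in the cyclin mutant, 20 min in both cdc20 courses and 15 min in the 37 C wild type. When the MCM mean was at its low point, ORC1 was 0.07 to 1.02 above its value at the early MCM peak in all 9 courses. ORC1 had lowest, median and highest values of 8.997, 9.88 and 10.19, and 8.90, 9.83 and 10.38 in the 30 C wild type, while the cyclin-mutant values were 9.60, 10.17 and 10.63, and 9.28, 9.90 and 10.47. The highest cyclin-mutant values came later than that window, at 166 and 158 min, and the peaks within it were 10.57 (134 min) and 10.32 (142 min). The swings were small, with fitted ranges from 0.43 in the 37 C wild type to 1.26 in cdc20.

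TAH11, which encodes the Cdt1 partner that travels with the Mcm rings, hardly moved in the 30 C wild type. Its lowest, median and highest values there were 10.45, 10.64 and 10.81, and 10.66, 10.74 and 11.36, with a fitted range of 0.34. In the courses moved to 37 C medium its highest values came early. The 37 C wild type was at 12.46 in its first sample (15 min) and at 10.43 at its lowest. TAH11 began at 10.54 in cdc14-3 and 11.05 in cdc15-2, was highest at 12 min, with 11.53 and 11.62, and ended at 10.25 and 10.67. In the cyclin mutant TAH11 climbed from 10.53 and 10.48 in the earliest samples to 11.23 at 198 min and 11.43 at 190 min, while the MCM genes were low. Its fitted range there, 0.80, was under the minimum for a call, at a limma adjusted p of 1.24e-13.

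A further 18 genes for origin recognition and firing were followed beside the MCM genes. The late level of 1, ORC3 (0.41), was higher in the cyclin mutant than in the 30 C wild type and none was lower. Of all genes 15.3% were called in that contrast and 6.63% called lower, so for 18 genes these counts are not far from the array as a whole. Over time 5 of the 18 were called in the 30 C wild type, 7 in the cyclin mutant and 7 in cdc20, against 36.0%, 37.4% and 56.1% of all genes. In these 3 groups SLD2 and RIF1 had the widest swings of the 18, with fitted ranges of 1.99 and 2.38 in the cyclin mutant, 1.75 and 1.95 in the 30 C wild type and 1.85 and 1.78 in cdc20. In the groups at 37 C they did not: PSF3 was widest in the 37 C wild type (1.13, SLD2 0.25) and in cdc15-2 (1.17), and ORC3 in cdc14-3 (1.16). Sld2 acts in loading the helicase activators and Rif1 restrains origin firing. Among GINS genes, PSF1 (0.71), PSF2 (0.75), PSF3 (1.20) and SLD5 (0.59) had higher late levels in cdc20 than in the cyclin mutant, and all 4 genes of the complex were among the 7 called of 18 (4 higher, 3 lower). With 45.3% of all genes called and 25.4% called higher in that contrast, the counts for the 18 genes are near those of the array as a whole. MCM10, which despite its name is no part of the ring, was not called between the cyclin mutant and the wild type (-0.30).

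Most of 8 other genes listed here as Mcm1 and Yox1 targets were low in the cyclin mutant too. Their promoters were not analysed, so a control shared with the MCM genes was not tested. STE2 and STE6 are also among the MATa markers above. Of the 8 genes, 6 had lower late levels in the cyclin mutant than in the 30 C wild type and none higher. They were FAR1 (-2.59), the inhibitor of G1 cyclins, STE6 (-1.81), SPO12 (-1.35), STE2 (-1.20), DBF2 (-1.08) and CLN3 (-0.98). SWI4 (-0.45) and AGA1 (0.28) did not pass. The share of all genes called lower there was 6.63%. In cdc20 7 of the 8 were higher than in the cyclin mutant, against 25.4% of all genes, and 6 were higher than in the 30 C wild type, against 26.0% of all genes, among them SPO12 (1.54) and CLN3 (0.92). Their median difference of -1.14 between the cyclin mutant and the wild type compares with -1.37 for the 6 MCM genes and 0.01 for all genes tested.

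Late mitotic genes linked to the Swi5 factor were low in the mitotic mutants. In cdc20, 5 of these 6 genes had lower late levels than in the 30 C wild type, namely EGT2 (-2.48), PCL9 (-1.76), SIC1 (-1.25), RME1 (-1.08) and ASH1 (-0.49), where 16.3% of all genes were called lower. In cdc14-3, 4 of 6 were lower than in the 37 C wild type, with EGT2 at -3.29 and PCL9 at -2.41 (3.27% of all genes), and in cdc15-2, 3 of 6 were (2.24%). No MCM gene was called lower in cdc14-3 or cdc15-2 in the same fit. Of the 6 genes 4 were lower in the cyclin mutant along with the MCM genes, with EGT2 at -2.26 and ASH1 at -2.10, against 6.63% of all genes.

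Among the regulators, SWI5 was lower in the cyclin mutant than in the 30 C wild type (-1.19) and YHP1 higher (0.71), while YOX1 did not pass (0.51). MCM1 was lower too (-0.59). In cdc20 YOX1 (-1.94) and YHP1 (-0.98) were lower than in the cyclin mutant, where 45.3% of all genes were called. In cdc14-3 both were higher than in the 37 C wild type (YOX1 1.76 and YHP1 1.56), where 7.10% of all genes were called. The part of these regulators in the MCM levels was not tested.

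The gene most like the MCM mean over the 142 arrays was MSA1, which encodes an activator of G1-specific transcription, with a Pearson r of 0.932 and between 0.835 and 0.998 within single courses. It was followed by the a-factor gene MFA2 (0.848), HST4 (0.841), which encodes a histone deacetylase, STE6 (0.831), STE2 (0.822), FAR1 (0.811), RGA1 (0.788), YHL026C (0.764), WTM2 (0.761) and CLA4 (0.757). MFA2, STE6, STE2 and FAR1 are genes of the mating response. The lowest value in a single course was 0.116 for RGA1, 0.196 for STE6 and 0.225 for HST4, and between 0.401 and 0.651 for 6 others, so the likeness was uneven between courses except for MSA1. Of these 10 genes 9 were also among the 10 by Spearman correlation. CDC45 was most like SMC3 (0.967), a cohesin gene, POL1 (0.962), for DNA polymerase alpha, and BNI4 (0.958). ORC1 was most like the condensin genes SMC4 (0.833) and YCG1 (0.814) and the histone gene HTB2 (0.806). TAH11 was most like FES1 (0.828), LST8 (0.804) and YDJ1 (0.767); FES1 and YDJ1 encode partners of Hsp70 chaperones. CDC6 was most like SCC2 (0.791), a cohesin loader, SKG6 (0.790) and RFC5 (0.787).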

How the data were processed

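RNA was measured on 142 Affymetrix arrays. The deposited values are linear probe-set intensity values (22.2 to 35171; array medians 1056 to 1362), made by the authors with the affy package per the submitters' processing notes; summary method and normalization are not given in the sources used. The plan had taken them to be log2; log2 was taken here, with pseudocount 0. Control (184) and unnamed (218) probe sets were left out, 12 symbols were updated (RefSeq R64), and 47 genes with several probe sets kept the brightest, leaving 5449 genes. Tests used limma 3.58.1 (R 4.3.3), Benjamini-Hochberg adjusted over all genes: splines with 5 degrees of freedom (3 from 100 min on) and an intercept per course, and 7 contrasts of course values. In simulated data with 5449 genes the late-level fit called 84% of genes changed by 1 log2 unit for the cyclin mutant against the 30 C wild type, and 61% for cdc14-3 against the 37 C wild type. The number of arrays limits precision. Members and lists were chosen with earlier results of these data known. All 10 members, genes of the lists, the 10 genes most like the MCM mean and the 3 most like each other member were named. Replicate numbers did not pair courses (correlations of deviations -0.0335, 0.0461 and 0.0768). Promoter motifs and some 30 C wild-type time points were not analysed here.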

Additional observations from a re-analysis of the deposited data

Results flagged for a closer look

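Several differences between groups in the same within-course change passed the limma fit over courses (Benjamini-Hochberg adjusted p under 0.05 over all genes). The change was the late level minus the mean of the same course before 100 min, a measure added after seeing the data. Samples before 100 min covered unlike stages, and the early MCM peak of the second cdc20 course, at 100 min, was not among them. Between the cyclin mutant and the 30 C wild type it differed for MCM7 (-2.38), MCM5 (-1.63), MCM3 (-1.47), MCM2 (-1.35), MCM6 (-1.26), MCM4 (-1.11), CDC6 (-0.84) and TAH11 (0.70), where 12.1% of all genes were called. Between cdc20 and the cyclin mutant it differed for MCM7 (3.49), MCM3 (2.25), MCM5 (2.13), MCM4 (1.92), MCM2 (1.86), MCM6 (1.19) and TAH11 (-0.62), where 29.2% were. Between cdc20 and the 30 C wild type it differed for MCM7 (1.12), MCM4 (0.80), MCM3 (0.77), MCM2 (0.51) and MCM5 (0.51). In that contrast 26.0% of all genes were called and 12.8% called higher.

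The swing within a course was smaller in cdc20 than in the cyclin mutant for MCM3 (-1.81), MCM5 (-1.63) and MCM6 (-1.06) in the limma fit. Of all genes 4.39% were called there and 1.32% called lower. None of the 3 held without either wild-type course at 30 C or without either cyclin-mutant course. No cause was tested for any of these differences.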

How the results depend on the processing

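Counts are of the 10 genes called. With the second 30 C wild-type course as deposited, change over time there gave 3, change from 100 min gave 0, and every contrast of late level or swing gave 0, with a late-level difference of 0.20 for MCM3 between the wild types. Change over time in cdc14-3 gave 7 with no minimum range, 8 without samples before 30 min and 9 up to 120 min; cdc15-2 gave 7, 5 and 6. The 30 C wild type gave 4 with 4 spline degrees of freedom, and the 37 C wild type gave 3 without samples before 30 min. Change from 100 min gave, with no minimum range, 2 in the 30 C wild type, 1 in the 37 C wild type, 9 in cdc20 and 9 in cdc14-3; from 120 min it gave 2 in the 30 C wild type, 0 in the cyclin mutant and 4 in cdc20. Late level gave 1 for cdc14-3 and 3 for cdc15-2 against the 37 C wild type with trended robust variances, and 2 and 3 from 140 min. Relative to own arrays before 100 min, it gave 5 for cdc20 and 0 for the 37 C wild type against the 30 C wild type, and the sign turned for MCM4 (0.80) and MCM7 (1.12) in cdc20 and MCM3 (0.65), MCM4 (0.45), MCM6 (0.26) and MCM7 (0.32) in the 37 C wild type. As SD over arrays, the swing gave 6 for the cyclin mutant against the 30 C wild type, 6 for cdc20 against the cyclin mutant and 2 for the warm against the cool wild type, and over 30 to 180 min the last gave 3.

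Leaving out 1 course at a time, change from 100 min gave 1 to 3 in the 30 C wild type and 3 to 7 in the cyclin mutant. Late level gave 6 to 8 for the cyclin mutant against the 30 C wild type, 6 to 8 for cdc20 against the cyclin mutant, 0 to 3 for cdc20 against the 30 C wild type, 2 to 4 for the wild types, 0 to 2 for cdc14-3 and 0 to 3 for cdc15-2 against the 37 C wild type. Swing gave 0 to 3 for cdc20 against the cyclin mutant, 0 to 1 for the cyclin mutant and 0 to 1 for the 37 C wild type against the 30 C wild type. With the replicate block, late level gave 7 for the cyclin mutant against the 30 C wild type, 9 for cdc20 against the cyclin mutant, 2 for cdc20 and 4 for the 37 C wild type against the 30 C wild type, and swing gave 2 for cdc20 against the cyclin mutant. The numbers pair no courses, so this is a formal check. In total 245 of 295 such counts stayed within 1.5 times of the reported count. The causes of the other changes were not tested. Counts over all genes moved too, for example from 1672 to 5111 for change over time in the cyclin mutant. The table used has no detection calls, so how far low values stand above background was not assessed.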
